A study of Drosophila melanogaster with 14 samples.

Results

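RNA from fly heads taken in the middle of the light phase was compared with RNA from heads taken in the middle of the dark phase, in control (w1118) and in fmn flies. The comparison held 8 of the 14 arrays of the series. The 4 mid-light arrays were those labelled ZT 4 and ZT 8, and the 4 mid-dark arrays those labelled ZT 16 and ZT 20, with 1 array per genotype at each time, where zeitgeber time (ZT) 0 is lights-on and ZT 12 is lights-off. Arrays were chosen by their labelled time alone, and the 6 arrays of ZT 0, ZT 12 and ZT 24 were used only to describe where a gene stood at the transitions. Control flies were of the w1118 strain. The fmn flies carry a mutation of the dopamine transporter gene DAT and had been backcrossed over 5 generations to w1118, so both genotypes share the white-eye mutation. According to the study, the stretch of chromosome around DAT was not made isogenic. All flies were kept in light and dark cycles of 12 h each, on standard food, and were frozen after 4 such cycles. Each RNA was extracted from approximately 400 pooled heads of both sexes, which had been separated from frozen bodies by shaking and sieving, and no age is given in the labels. No time point was repeated, so each genotype contributed 2 arrays of different times to a phase. The spread between the arrays of a phase therefore includes any change within that phase, and each p-value sets a difference against that spread.

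The daily cycle of a fly runs on a molecular clock in which CLK and CYC activate the genes per and tim, whose proteins return to the nucleus at night and block CLK and CYC. A second loop, through vri and Pdp1, sets the level of Clk, and the blue-light photoreceptor CRY, made from cry, resets the clock by triggering the breakdown of TIM at dawn. In heads the clock runs in brain neurons and also in photoreceptors, glia and fat body, and light itself, feeding and sleep change with the same cycle, so that heads sampled by day and by night differ in the clock, in behavior and in light at once. In RNA from whole heads, fewer cells of a type and less RNA per cell cannot be told apart.

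The signal of a probe set is its MAS5 signal, a brightness on a linear scale. Signals of DAT lay between 471.0 and 618.7 on the control arrays and between 1.43 and 14.47 on the fmn arrays, so every array matched its genotype label. The 75th percentile of the signals differed little between arrays (566.3 to 587.5), and 8601 to 8896 probe sets reached a signal of 100. All 5 neuronal, 5 glial and 4 photoreceptor markers on the array reached that level on all 14 arrays. The fmn array of ZT 4 also carried transcripts of testis, male accessory gland and gut, and the fmn array of ZT 8 transcripts of ovary and gut.

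Heads of the light phase and heads of the dark phase differed in called transcripts that mostly changed less than 2-fold. Of 8641 probe sets tested, 316 (3.66%) were called, which asked for an adjusted p under 0.05 in limma with genotype as a covariate, a log2 difference of at least 0.322 in size, which is the fold threshold of the study, and the same direction in control alone. Light and dark shared the calls almost evenly, with 157 (1.82%) higher in mid-light and 159 (1.84%) higher in mid-dark. The called probe sets named 285 genes, 140 of them higher in mid-light and 145 higher in mid-dark. Their median fold was 1.4, and only 22 reached 2-fold, 8 higher in mid-light and 14 higher in mid-dark. Every called probe set had the same direction in fmn as in control, with no overlap between the phases in either genotype, and 250 of the 316 reached the fold threshold in each genotype. Over all probe sets tested, 1654 (19.1%) had phases that did not overlap in both genotypes in 1 direction. The direction asked of control set aside 0 probe sets, so the same 316 passed without it. Leaving out 1 array at a time gave 193 to 350 calls, the lowest without the control array of ZT 4, and 1 call was made when all 18769 probe sets were tested without the filter on dim signals.

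Among the called probe sets, which had to agree between the genotypes to pass a fit without an interaction, the median size of the log2 difference was 0.49 in control and 0.47 in fmn, and it was larger in control for 172 and larger in fmn for 144. The test of the difference itself, the interaction of genotype and phase in limma, passed at an adjusted p under 0.05 for 1 of 8641 probe sets (0.0116%), that of CG16826, whose control mid-dark signals were under 2, and 374 had an unadjusted p under 0.05. With a pseudocount of 32 the interaction passed for 0 (smallest adjusted p 0.294). None of the 316 called probe sets passed it, with a smallest adjusted p of 0.991 and an unadjusted p under 0.05 for 17. A miss of this test does not show that the genotypes respond alike. The test did not pair control and fmn by time, so change within a phase common to both genotypes adds to its error. Fitted alone, with 2 arrays against 2, control passed at an adjusted p under 0.05 for 24 probe sets (1259 unadjusted) and fmn for 1 (948 unadjusted).

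**Figure D1:**
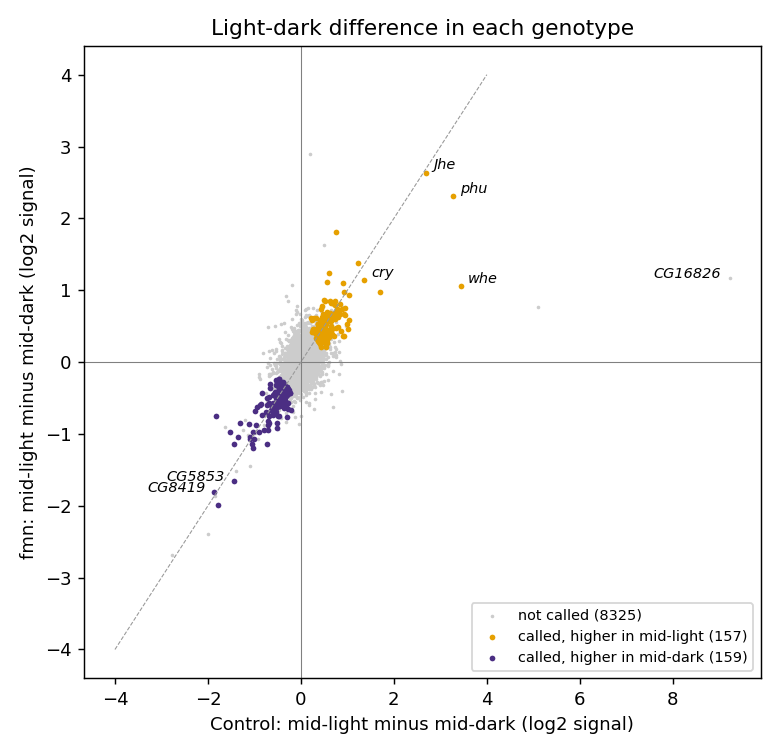
Mid-light minus mid-dark difference in log2 signal for 8641 probe sets, in control (horizontal axis) and in fmn (vertical axis). Each point is 1 probe set, the dashed line marks equal differences, and the 157 called higher in mid-light and the 159 called higher in mid-dark lie in the 2 quadrants of shared direction. The position of CG16826 on the control axis rests on mid-dark signals under 2, and against a signal of 100 its control difference is 3.08.

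Of the genes of the clock itself, cry was the only 1 of 8 measured feedback loop genes that was called (12.5%, beside 3.66% over all probe sets). Its signals in mid-light were 3286 and 3042 in control and 3038 and 2958 in fmn. In mid-dark they were 1162 and 1352 in control and 1189 and 1538 in fmn. All 4 mid-light arrays stood above all 4 mid-dark arrays. The difference was 2.37-fold (log2 difference 1.24, SE 0.10, limma adjusted p 0.000823, n = 4 arrays per phase), and the adjusted p stayed at or under 0.00549 whichever array was left out. At lights-on cry was near its daytime level (2830 and 2656 in control at ZT 0 and ZT 24, 2923 and 2869 in fmn), and at lights-off it stood between the phases (2104 and 2102).

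The other loop genes were not called, although several of them changed several-fold over the day. In control, per, which encodes the repressor PER, had a signal of 266.6 at ZT 4, 949.3 at ZT 8, 1676 at ZT 16 and 470.2 at ZT 20. In fmn the same 4 times gave 201.3, 834.4, 1425 and 389.8. The phases overlapped in both genotypes, since the late-light array stood above the late-dark array, and the log2 difference of -0.84 (SE 0.64) had a limma adjusted p of 0.499.

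For tim, whose product is the light-sensitive partner of PER, the control signals were 1082 and 5245 in mid-light and 7866 and 5081 in mid-dark. In fmn they were 1073 and 4015 against 7626 and 4525. Here the phases overlapped in control but not in fmn, where both mid-dark arrays were the higher, and the log2 difference was -1.45 (SE 0.53, limma adjusted p 0.161). A dimmer probe set of tim had a log2 difference of -1.86 and was not called either (adjusted p 0.139).

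Clk, which encodes the activator, ran the opposite way within each phase. It went from 813.0 at ZT 4 to 494.7 at ZT 8 and from 245.9 at ZT 16 to 744.5 at ZT 20 in control, and from 877.9 to 560.1 and from 326.5 to 866.7 in fmn. The phases overlapped in both genotypes (log2 difference 0.49, SE 0.40, limma adjusted p 0.536). The loop genes vri (log2 difference -0.57, adjusted p 0.628), Pdp1 (-0.34, 0.418) and cwo (0.14, 0.729) also had overlapping phases in both genotypes in limma, and cyc, which does not cycle in the textbook account, differed by -0.10 (0.340).

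When the phases were compared at a single pair of times, the sign of several loop genes turned. In the fit of ZT 8 against ZT 20 alone, per (1.05) and vri (1.15) were higher in the light and Clk (-0.62) was higher in the dark, where the fit over all 8 arrays gave the opposite signs. The level of cry changed less within a phase, by 0.22 (control) and 0.37 (fmn) on the log2 scale from ZT 16 to ZT 20. Across the array, 10 probe sets changed at least 2-fold from ZT 4 to ZT 8 in the same direction in both genotypes, those of Achl, CG34134, tim (2 probe sets), Sidpn, Slob, per, gol, vri and Usp8. From ZT 16 to ZT 20, 13 did so. Limma called none of these, with an unadjusted p under 0.05 for 5 of the 10 and for 4 of the 13. The largest of them, Achl, a clock-controlled RNA-binding protein gene, fell from 248.0 to 27.97 between ZT 4 and ZT 8 in control and from 244.7 to 29.31 in fmn, then rose to 916.0 and 903.5 at ZT 20.

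**Figure D2:**
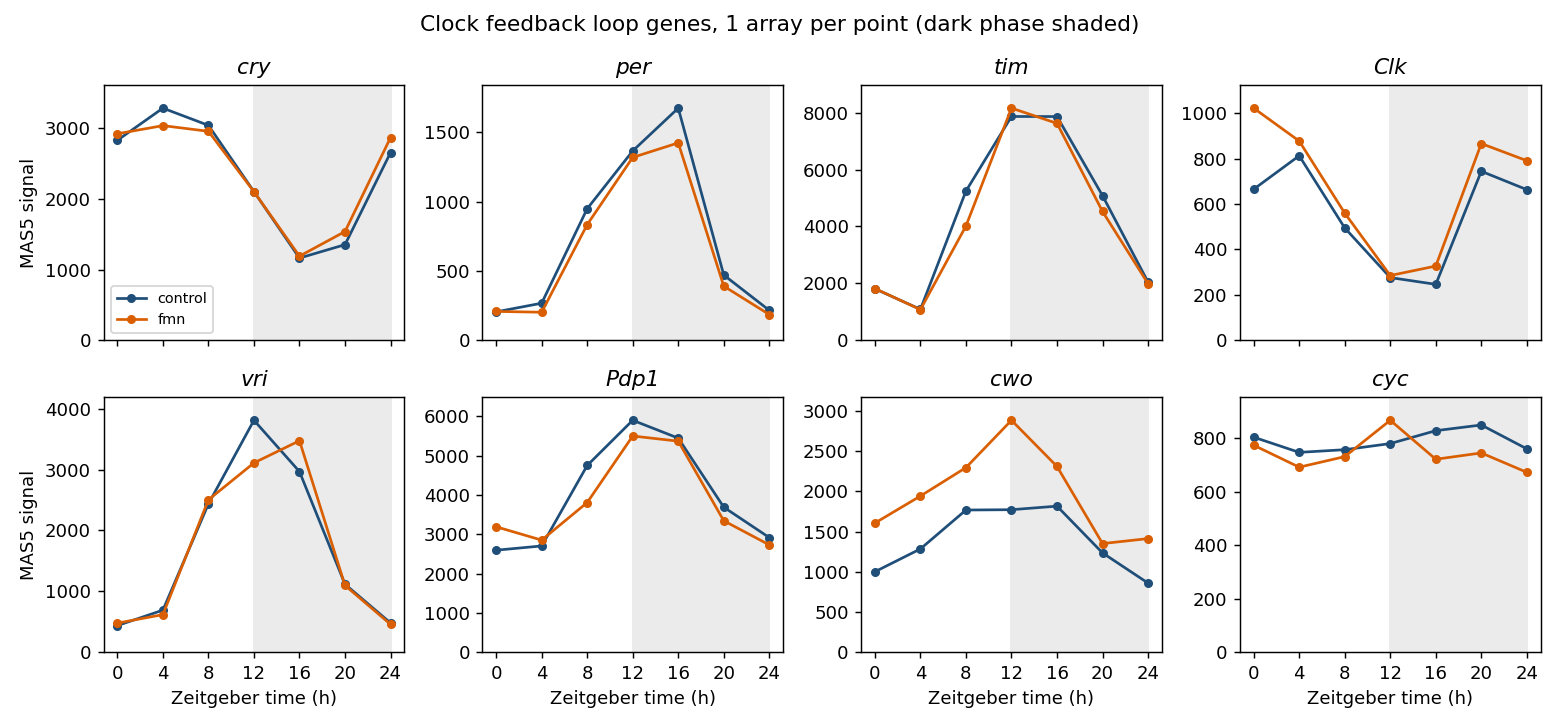
MAS5 signal (vertical axis) of the 8 clock feedback loop genes at each zeitgeber time in hours (horizontal axis), 1 array per point, in control and fmn, with the dark phase shaded. The line of cry is high at ZT 4 and ZT 8 (2958 to 3286) and low at ZT 16 and ZT 20 (1162 to 1538), whereas per, tim, vri and Clk change several-fold within a phase.

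The largest rises in mid-light were in genes outside the clock loop. Signals of phu were 611.5 and 494.3 in control and 1086 and 591.2 in fmn in mid-light, against 47.65 and 69.3 in control and 100.8 and 256.1 in fmn in mid-dark. The phases were apart in all arrays, and fmn was the higher genotype in the dark, for a fitted log2 difference of 2.79 (SE 0.34, limma adjusted p 0.00394). As both control mid-dark arrays were under 100, the fold was at least 5.24 with those signals set to 100. The 2 control arrays of lights-on differed for phu (524.4 at ZT 0 and 161.2 at ZT 24), as did those of fmn (1490 and 723.4).

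Jhe encodes juvenile hormone esterase, which breaks down juvenile hormone. Its signals were 164.6 and 177.8 in control and 198.1 and 140.3 in fmn in mid-light, and 15.28, 46.34, 20.44 and 34.6 in mid-dark. As all 4 mid-dark arrays were under 100, its rise was at least 1.69-fold against a signal of 100 (fitted log2 difference 2.67, SE 0.32, limma adjusted p 0.00389). Jhbp5, of the juvenile hormone binding protein family, moved the same way, from 129.3 and 118.6 in control and 102.1 and 137.9 in fmn in mid-dark to 258.1 and 164.4 in control and 496.0 and 352.3 in fmn in mid-light. Phases were apart in both genotypes (2.42-fold, log2 difference 1.28, SE 0.24, limma adjusted p 0.0231). Its call was lost without the control array of ZT 4 (adjusted p 0.0655), the fmn array of ZT 8 (0.0628) or the fmn array of ZT 20 (0.0676). The highest signals of Jhbp5 were 502.0 at control ZT 0, 496.0 at fmn ZT 4 and 352.3 at fmn ZT 8. These arrays carry transcripts of other organs, and control ZT 24 gave 220.5. The part of that in the result was not tested. Jhe and Jhbp5 were the only called genes among 7 juvenile hormone genes tested (28.6%, beside 3.66% over all probe sets). That list was drawn up after the values were seen.

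For whe the mid-light signals were 884.5 and 461.5 in control and 2471 and 1048 in fmn, and the mid-dark signals 72.19 and 48.89 in control and 751.4 and 782.5 in fmn. The phases were apart within each genotype, but the control mid-light array of ZT 8 lay below both fmn mid-dark arrays, and both control mid-dark arrays were under 100. The rise was at least 6.39-fold in control against a signal of 100 and 2.10-fold in fmn with the same floor, a difference that did not pass the interaction test (limma adjusted p 0.991). Over both genotypes the fitted log2 difference was 2.25 (SE 0.49, limma adjusted p 0.0379), or 3.66-fold with signals under 100 set to 100, and the call was kept only without the fmn array of ZT 8 or of ZT 16 among the fits that left out 1 array, with adjusted p up to 0.106. Its control signals at the time of lights-on were 2639 at ZT 0 and 52.12 at ZT 24, which are the same phase of the cycle. CG16826, the gene of the interaction, had the same kind of pattern. Its signals were 972.1 and 738.7 in control mid-light, 1416 and 727.2 in fmn mid-light, 592.4 and 339.9 in fmn mid-dark and under 2 on both arrays of control mid-dark, and the array of control ZT 0 gave 1734 where that of ZT 24 gave 0.833. As both control mid-dark arrays were far under 100, its rise in control was at least 8.47-fold against a signal of 100, and in fmn it was 2.26-fold. The fitted interaction (fmn minus control -8.06, limma adjusted p 0.00319) has no exact size, since it rests on these dim signals, and it came to -1.91 with signals under 100 set to 100. With a pseudocount of 32 it no longer passed (smallest adjusted p of all probe sets 0.294), and CG16826 was not called over both genotypes (adjusted p 0.0713). For whe and for CG16826 the highest signals of all 14 arrays were those of control ZT 0 and fmn ZT 4. Both of these arrays carry transcripts of other organs. The part of that in the results of whe and CG16826 was not tested.

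Among the other large rises, CG9377 went from 820.8 to 1063 over the 4 mid-dark arrays up to 2142 to 2669 over the mid-light ones (2.46-fold, log2 difference 1.30, SE 0.10, limma adjusted p 0.000823). CG1698 was at 92.1 to 97.57 in mid-dark and 163.3 to 234.7 in mid-light, at least 1.88-fold against a signal of 100 (limma adjusted p 0.00115). CG11951 (1.97-fold), CG1136 (1.94-fold), CG18598 (1.80-fold) and CG17211 (1.79-fold) were also higher in all mid-light arrays of each genotype. The glutamate transporter gene dmGlut rose 1.89-fold, from 273.4 and 230.4 in control and 206.1 and 144.6 in fmn to 367.8 and 386.5 in control and 322.8 and 521.7 in fmn (log2 difference 0.92, SE 0.19, limma adjusted p 0.0295). It kept its call only without the control array of ZT 16 or the fmn array of ZT 8 among the 8 fits that left out 1 array (adjusted p up to 0.0729).

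On the dark side, CG5853, an ABC transporter gene of the family of white, had the smallest adjusted p of the comparison. Its mid-light signals were 667.6 and 733.4 in control and 792.3 and 847.4 in fmn, and its mid-dark signals 1893 and 1948 in control and 2508 and 2632 in fmn. The phases lay far apart relative to the arrays within them, at 2.93-fold (log2 difference -1.55, SE 0.07, limma adjusted p 3.92e-05). Its signals at lights-on and at lights-off, 1197 to 1837, stood between the phases in both genotypes.

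CG15369 was also higher in mid-dark, with 72.43 and 46.73 in control and 138.0 and 102.7 in fmn in mid-light against 209.1, 193.5, 367.7 and 592.8 in mid-dark. No mid-light array reached a mid-dark one (fitted log2 difference -1.88, SE 0.19, limma adjusted p 0.00175). As both control mid-light arrays were under 100, its fold was at least 2.81 with those signals set to 100. CG8419 had 106.2 to 186.8 in mid-light and 468.5 to 569.0 in mid-dark (3.56-fold, limma adjusted p 0.00105), and CG15760, under 100 on all 4 mid-light arrays (61.43 to 89.81) and at 140.0 to 218.3 in mid-dark, was at least 1.80-fold higher in the dark.

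Myo28B1 and M7BP were also among the largest called on the dark side. Myo28B1, which encodes a class VII myosin motor, was at 155.6 and 234.6 in control and 187.8 and 232.7 in fmn in mid-light, and at 597.7 and 407.3 in control and 473.1 and 383.2 in fmn in mid-dark. All mid-dark arrays were above all mid-light arrays (2.29-fold, log2 difference -1.20, SE 0.17, limma adjusted p 0.0073). M7BP, named for binding myosin VII, was at 483.6 to 656.4 in mid-light and 1083 to 1370 in mid-dark on its called probe set (2.17-fold, log2 difference -1.12, SE 0.07, limma adjusted p 0.000221). Its brighter probe sets differed by -0.11 and -0.01 and were not called, so the call rests on 1 of 3 probe sets.

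Other large dark-phase genes were CG5966, of the lipase family (2.14-fold, 597.7 to 755.5 in mid-light and 1117 to 1779 in mid-dark), Obp99a, an odorant-binding protein gene (2.12-fold, 1355 to 1973 and 2264 to 4675), and CG15199 (2.11-fold). Cyp4d21, a cytochrome P450 gene also known as sxe1, was at 3586 and 3769 in control and 3007 and 3383 in fmn in mid-light. It stood at 7250, 7652, 6878 and 6414 in mid-dark, and all of these exceeded the mid-light values (2.05-fold, log2 difference -1.04, SE 0.06, limma adjusted p 0.000202). The rise had already come at lights-off in part (6198 in control and 5109 in fmn at ZT 12), and at lights-on the signals had come back down in part (3570 to 5282).

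**Figure D3:**
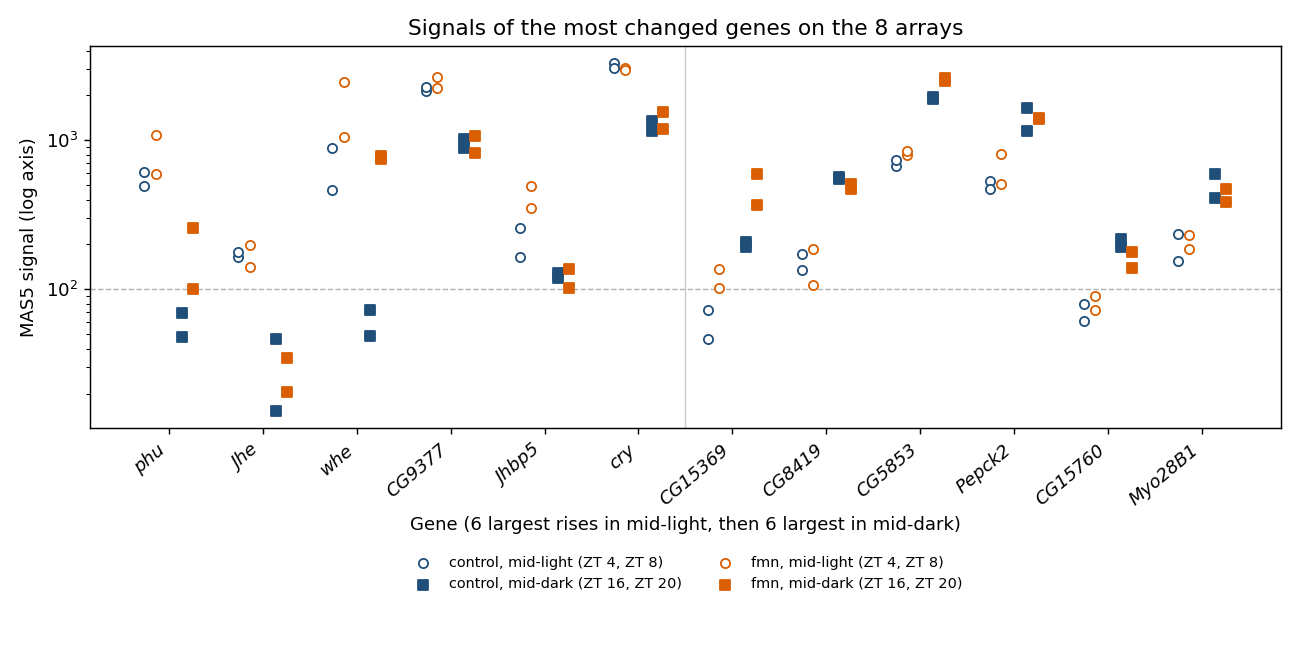
MAS5 signal on a log axis (vertical) of the 6 genes with the largest fitted rise in mid-light, then the 6 with the largest fitted rise in mid-dark (horizontal), on the 8 arrays compared, with open circles for mid-light and filled squares for mid-dark. The dashed line marks a signal of 100, under which all 4 mid-dark arrays of Jhe and all 4 mid-light arrays of CG15760 lie, and for cry and CG5853 the phases form separate groups in both genotypes.

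Genes of glucose and glycogen metabolism were called on both sides. Gluconeogenesis makes glucose from smaller molecules through phosphoenolpyruvate carboxykinase, encoded by Pepck1 and Pepck2, and glucose-6-phosphatase, encoded by G6P. Pepck2 had signals of 535.7 and 473.4 in control and 807.6 and 506.9 in fmn in mid-light, and of 1162, 1650, 1382 and 1409 in mid-dark. The phases did not overlap (2.44-fold higher in mid-dark, log2 difference -1.29, SE 0.16, limma adjusted p 0.00428). G6P was higher in mid-dark as well, at 201.1 to 214.6 against 121.9 to 182.4 (log2 difference -0.51, limma adjusted p 0.0162). For Pepck1, at 11750 to 13900 in mid-dark and 9115 to 11670 in mid-light, the difference of -0.33 had a limma adjusted p of 0.0479 and was called among fits that left out 1 array only without the control array of ZT 8 (up to 0.133 in the others).

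Called in mid-light were Glys and Gbs-70E. Glys, which encodes glycogen synthase, was at 4008 and 4186 in control and 4136 and 3627 in fmn in mid-light and at 2760, 2793, 2873 and 2979 in mid-dark. Its phases did not overlap (1.40-fold, log2 difference 0.49, SE 0.07, limma adjusted p 0.0073). Gbs-70E, which encodes a subunit that brings protein phosphatase 1 to glycogen, was at 3221 to 3921 in mid-light and 2597 to 3108 in mid-dark (log2 difference 0.35, limma adjusted p 0.0254). Other genes of glycogen synthesis were not called by limma, with AGBE, the branching enzyme gene, at 0.23 (adjusted p 0.311) and Gbs-76A at 0.17 (0.425). Gyg, the glycogenin gene, was at 0.19 (limma adjusted p 0.183) on its brighter probe set and 0.37 (0.119) on its dimmer one. Glycogen phosphorylase (Glyp, 0.19, adjusted p 0.0972) and fructose-1,6-bisphosphatase (fbp, -0.17, 0.161) were not called either. Of 11 genes of gluconeogenesis and glycogen, 2 were called higher in mid-light and 3 higher in mid-dark (45.5%, beside 3.66% over all probe sets). That list was drawn up after the values were seen. Of a separate, partly overlapping list of 25 sugar metabolism genes, 1 was called higher in mid-light and 2 higher in mid-dark (12.0%). The median of this second list was 0.0073, beside 0.0046 over all probe sets.

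Amino acid breakdown also appeared among the calls. In the breakdown of tyrosine, Hpd (4-hydroxyphenylpyruvate dioxygenase) and hgo (homogentisate dioxygenase) catalyze consecutive steps, and both were higher in mid-light. Signals of hgo were 934.8 and 862.3 in control and 953.4 and 939.8 in fmn in mid-light, against 467.0 and 486.1 in control and 641.0 and 834.2 in fmn in mid-dark. No overlap was seen in either genotype (log2 difference 0.65, SE 0.13, limma adjusted p 0.0267), though the fmn array of ZT 20 came near the mid-light level. Hpd was at 3598 and 2884 in control and 4087 and 3878 in fmn against 1396, 1878, 2495 and 3307. Its mid-dark fmn array of ZT 20 lay above the control mid-light array of ZT 8 (log2 difference 0.73, SE 0.16, limma adjusted p 0.035), and among the fits that left out 1 array it was called only without that fmn array (0.0196), with adjusted p up to 0.0842 in the others. The other 4 genes of the pathway were not called by limma, among them GstZ2 (0.74, adjusted p 0.101), Tat (0.18, 0.188) and Faa (0.14, 0.194). The remaining gene had the sign of mid-dark (log2 difference -0.18). Of the 6 genes 33.3% were called, beside 3.66% over all probe sets. The list of 6 was drawn up after the values were seen.

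In the handling of glycine and sarcosine, by contrast, the calls were on the dark side. Gnmt (glycine N-methyltransferase), which makes sarcosine and uses up S-adenosylmethionine, was at 812.5 and 874.0 in control and 1274 and 1667 in fmn in mid-light. It reached 2458 and 1804 in control and 2411 and 2787 in fmn in mid-dark, with the phases apart (2.10-fold, log2 difference -1.07, SE 0.14, limma adjusted p 0.00516). Sardh (sarcosine dehydrogenase, -0.49, adjusted p 0.0119) and CG3999 (the glycine decarboxylase of the cleavage system, -0.43, adjusted p 0.0342) were higher in mid-dark too. These were 3 of 10 genes of this list (30.0%, beside 3.66% over all probe sets), and 8 of the 10 had the sign of mid-dark. The list was drawn up after the values were seen.

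Genes of the eye and of light detection changed in part. Phototransduction genes were not called by limma (0 of 24 tested, 9 at an unadjusted p under 0.05, median 0.05), nor was the only opsin that passed the filter on dim signals, Rh7 (0.13, adjusted p 0.466). Called on the dark side were rdhB, Culd, Pkc53E, Rab32 and Cnx99A, all but the last pair named after their values were seen. rdhB encodes a retinol dehydrogenase that makes the visual chromophore, and its signals were 3359 and 3197 in control and 3376 and 3080 in fmn in mid-light and 4880, 5799, 4529 and 6344 in mid-dark. The phases were apart (log2 difference -0.71, SE 0.11, limma adjusted p 0.0102). Culd, which acts in the turnover of rhodopsin, was at 2203 to 3742 in mid-light and 4129 to 6113 in mid-dark (-0.76, adjusted p 0.0383), and Pkc53E, a conventional protein kinase C gene, was higher in mid-dark within each genotype (-0.51, 0.0159).

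Rab32, which encodes the GTPase of lightoid mutants that acts in the pigment granules of the eye, was at 5563 and 5452 in control and 5096 and 5543 in fmn in mid-light. In mid-dark it was at 7919, 8502, 8358 and 8458, well above (1.53-fold, log2 difference -0.62, SE 0.06, limma adjusted p 0.0015). Its list of 16 eye pigment and pteridine genes also held Hpd, the gene of tyrosine breakdown called in mid-light as given above. Rab32 and Hpd were the only calls of that list. Of the 16, 8 had each sign, with a median of -0.0001 and 12.5% called, beside 3.66% over all probe sets. Cnx99A, the calnexin gene required for rhodopsin folding, was at 3896 and 4100 in control and 2757 and 2742 in fmn in mid-light and at 5635, 6303, 4464 and 4064 in mid-dark (1.52-fold, log2 difference -0.60, SE 0.06, limma adjusted p 0.0019). Within each genotype its phases were apart. Control was the higher genotype in mid-light (mean 3998 against 2750) and in mid-dark (5969 against 4264). The control mid-light array of ZT 8 lay above the fmn mid-dark array of ZT 20. Cnx99A was the only called gene of 21 for protein folding in the endoplasmic reticulum (4.76%, near the 3.66% over all probe sets). Ekar, a kainate-type glutamate receptor gene of the eye, was higher in mid-light (0.35, limma adjusted p 0.00992). The summed signal of the 4 photoreceptor markers ranged over 61470 to 65670 in control mid-light and 62800 to 68300 in control mid-dark, which overlapped, and over 47860 to 52400 in fmn mid-light and 55450 to 57730 in fmn mid-dark, which did not. The part of that shift in the results above was not tested.

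None of 26 sleep genes, 21 synaptic vesicle and active zone genes, 25 neuropeptide genes, 11 clock kinase and turnover genes and 12 clock output genes was called in limma, where 4, 2, 4, 1 and 2 of them had an unadjusted p under 0.05, and the list medians lay between 0.02 and 0.09, beside 3.66% called and a median of 0.0046 over all probe sets. Some members changed within a phase, such as Usp8 (594.4 at ZT 4 and 2975 at ZT 8 in control). Genes that neuronal activity turns on, 6 tested, also had 0 calls in limma, but 5 of them had an unadjusted p under 0.05 and their median was 0.31. Among them the nuclear receptor gene Hr38 was at 266.3 and 184.2 in control and 284.3 and 193.8 in fmn in mid-light and at 175.0, 138.8, 169.2 and 143.5 in mid-dark, with no overlap (0.55, limma adjusted p 0.0807). CREG, the 1 of the 6 with the sign of mid-dark, had the smallest adjusted p of this list (-0.33, limma adjusted p 0.0558). Among the sleep genes, the potassium channel gene Sh passed the test (adjusted p 0.0417) at a log2 difference of -0.26, below the fold threshold. Of individual genes named after their values were seen, Tbh, which encodes the enzyme that makes octopamine, was higher in mid-light. It had signals of 241.7 and 238.4 in control and 242.1 and 226.2 in fmn, and of 156.3, 187.3, 190.2 and 170.2 in mid-dark, with no overlap (log2 difference 0.44, SE 0.08, limma adjusted p 0.0151). The serotonin receptor gene 5-HT2A was higher in mid-dark, at 646.0 to 700.5 against 387.0 to 543.7 (-0.52, limma adjusted p 0.0231), and so was Epac, which encodes an exchange factor that responds to cyclic AMP (-0.63, 0.0184).

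The scaffold gene dlg1 was higher in mid-dark on 2 of 3 probe sets (log2 differences -0.67 and -0.43, limma adjusted p 0.00882 and 0.0159) and did not pass on the third (0.10, 0.525). For fru, the sex-determination factor of courtship circuits, the dimmer probe set was called (-0.53, 0.0252) and the brighter one had a limma adjusted p of 0.053 (-0.47). In glia, the astrocyte gene alrm was called higher in mid-dark, with 772.8, 824.0, 952.7 and 796.0 in mid-light and 1116, 1343, 1127 and 1243 in mid-dark (log2 difference -0.53, SE 0.09, limma adjusted p 0.0148), while wrapper (0.47, adjusted p 0.223) and nrv2 (0.42, 0.129) had the sign of mid-light and were not called. The summed signal of the 5 glial markers was 6659 to 7100 in mid-light and 6318 to 7051 in mid-dark. The cystine-glutamate exchanger gene gb was higher in mid-light, at 894.9, 922.7, 899.3 and 921.8 against 631.9, 637.7, 591.4 and 663.5 (log2 difference 0.53, SE 0.06, limma adjusted p 0.0029). Gclc, for the enzyme that uses cysteine and glutamate to start glutathione synthesis, ran the other way (-0.48, limma adjusted p 0.00785).

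Lipid genes were called singly. Of 20 genes of fatty acid synthesis and storage, limma called 0, with 6 at an unadjusted p under 0.05. Outside that list, and named after their values were seen, bgm, a very long chain acyl-CoA synthetase gene, was at 4059 to 5040 in mid-light and 2376 to 2971 in mid-dark (log2 difference 0.75, SE 0.09, limma adjusted p 0.00389). Pcyt2, of phosphatidylethanolamine synthesis, was at 1335 to 1781 against 743.4 to 970.4 (0.78, adjusted p 0.00297), and Pss, a phosphatidylserine synthase gene, was lower in mid-light, with 1921 to 2412 against 2694 to 2814 (-0.41, 0.0235). In none of the 3 did the phases overlap.

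Of 15 cuticle protein genes tested, 3 were called higher in mid-light and 0 higher in mid-dark in limma, beside 1.82% and 1.84% over all probe sets, and 12 of 15 had the sign of mid-light (median 0.14). Cpr62Bb was at 986.4 and 1095 in control and 1036 and 1103 in fmn in mid-light and 741.7, 790.0, 826.5 and 818.8 in mid-dark, with no overlap (1.33-fold, log2 difference 0.41, SE 0.06, limma adjusted p 0.00814). Cpr11B (1.54-fold, adjusted p 0.0206) lost its call without the control array of ZT 8 or the fmn array of ZT 8 or ZT 20 (up to 0.0641 in limma), and Cpr49Af (1.33-fold, 0.0445) kept it only without the control array of ZT 20 (up to 0.124). A separate list of 21 chitin-binding and other cuticle genes was drawn up after the values were seen. It held 6 calls in mid-light and 0 in mid-dark (28.6%, beside 3.66% over all probe sets). Among the 6 were the chitin-binding protein genes Gasp and obst-A. Gasp had signals of 2110 and 1851 in control and 2373 and 2105 in fmn against 1022, 1279, 1227 and 1465 in mid-dark, with all mid-light arrays above (log2 difference 0.77, SE 0.10, limma adjusted p 0.00481). For obst-A the difference was 0.71 (limma adjusted p 0.0049).

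Detoxifying and other enzymes were called on both sides. Among 51 cytochrome P450 genes, 1 was called higher in mid-light, Cyp305a1, and 5 higher in mid-dark, with a median of -0.03. The share called was 11.8%, beside 3.66% over all probe sets. After Cyp4d21, the largest was Cyp18a1, which inactivates ecdysone, at 633.0 to 857.0 in mid-light and 963.2 to 1196 in mid-dark (log2 difference -0.59, limma adjusted p 0.00731). Its other probe set had the same difference (-0.59, 0.00785). Cyp4d8 (1.31-fold) had an adjusted p of 0.053 in limma without the control array of ZT 4, and Cyp305a1 (log2 difference 0.58) lost its call without the control arrays of ZT 4, ZT 16 or ZT 20 or the fmn array of ZT 4 (up to 0.0683). Of 26 glutathione transferase genes GstE14 was called in mid-dark (1.35-fold, limma adjusted p 0.01) and GstD10 in mid-light (1.42-fold, 0.0358), the latter only in the whole set and without the control array of ZT 20 or the fmn array of ZT 8 (up to 0.0984). Of that list 7.69% was called, beside 3.66% over all probe sets.

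Of 14 UDP-glycosyltransferase genes, Ugt36A1 (1.41-fold) and Ugt35C1 (1.26-fold) were called in mid-dark and Ugt302C1 (1.44-fold) in mid-light. The share called was 21.4%, beside 3.66% over all probe sets. Ugt36A1 lost its limma call without the control array of ZT 4 or ZT 20 or the fmn array of ZT 8 (up to 0.053), Ugt35C1 kept it only without the control array of ZT 4 (up to 0.084), and Ugt302C1 only without the fmn array of ZT 20 (up to 0.123). Of 20 genes of the neprilysin peptidases, which cut small peptides outside cells, 5 were called in mid-dark and 0 in mid-light in limma, beside 1.84% and 1.82% over all probe sets, in a list drawn up after the values were seen. Of the 20, 12 had the sign of mid-dark and 8 that of mid-light, with Nepl4 (0.36, adjusted p 0.0855) the highest of these. The called genes were Nepl6 (log2 difference -0.40), Nep6 (-0.34), Nep7 (-0.47), Nepl21 (-0.45) and Nepl5 (-0.37), with limma adjusted p of 0.00787 to 0.0379. Nepl6 was at 490.2 to 621.0 in mid-light and 633.9 to 812.3 in mid-dark.

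Immune genes were not called as a group. All 8 antimicrobial peptide genes tested had the sign of mid-dark, with a median log2 difference of -0.44, but limma called 0 of them and 3 had an unadjusted p under 0.05. Mtk, which encodes metchnikowin, was the nearest, with 9389 and 12360 in control and 6324 and 9084 in fmn in mid-light and 16260, 14060, 9720 and 9843 in mid-dark (-0.43, adjusted p 0.0972). Its phases were apart within each genotype but overlapped across genotypes. For Drs the control signals ranged from 2646 to 7014 over the 4 arrays with the phases overlapping (-0.62, limma adjusted p 0.279), and in the pair of control arrays of ZT 8 and ZT 20 the list median turned to 0.17. Of 18 peptidoglycan sensing genes only PGRP-LB, an amidase that degrades peptidoglycan, was called, higher in mid-light (1.29-fold, limma adjusted p 0.0434), and only the fit without the fmn array of ZT 16 kept that call when 1 array was left out (up to 0.119). The share called, 5.56%, was near the 3.66% over all probe sets, and 10 of the 18 had the sign of mid-dark. The largest difference of the list, that of PGRP-SC2, was toward mid-dark and not called (-1.28, limma adjusted p 0.132).

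Ribosomal protein genes of the mitochondria had small differences of mostly 1 sign. Of 69 tested, 67 had the sign of mid-dark, with a median log2 difference of -0.15 (-0.13 in control and -0.17 in fmn) against 0.0046 over all probe sets, and the median was below 0 in each of the 4 pairs of arrays, from -0.08 to -0.25. Of them 3 (4.35%) were called, beside 3.66% over all probe sets, so the share called was near the background, and all 3 were higher in mid-dark. mRpL11 was at 406.1 to 431.5 in mid-light and 503.4 to 608.8 in mid-dark (1.34-fold, log2 difference -0.42, limma adjusted p 0.00785). mRpL46 (1.36-fold, 0.0319) kept its call only without the control array of ZT 4 or ZT 20 (up to 0.0914), and mRpL39 (1.26-fold, 0.0235) lost it without the control arrays of ZT 4, ZT 8 or ZT 16 or the fmn array of ZT 4 (up to 0.0766). Cytosolic ribosomal protein genes had the sign of mid-dark in 31 of 33 genes, at a median of -0.09, with 0 calls in limma and 1 at an unadjusted p under 0.05. In the pair of control arrays of ZT 8 and ZT 20 their median was 0.17, and with quantile normalization it was -0.0008. Respiratory chain and ATP synthase genes (51 tested, 0 called, 1 at an unadjusted p under 0.05) had a median of -0.03.

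Muscle genes held 1 call of 18 (5.56%, near the 3.66% over all probe sets), that of Act79B in mid-light. Its signals were 459.8, 483.5, 639.1 and 513.9 in mid-light and 381.3, 408.9, 352.4 and 389.9 in mid-dark (1.36-fold, log2 difference 0.44, SE 0.10, limma adjusted p 0.0417). The phases were apart, but each of the 8 fits that left out 1 array lost the call (adjusted p 0.0534 to 0.0962). Its signal was highest at ZT 0 in control (640.4) and at ZT 4 in fmn, on arrays that carry transcripts of other organs, and the summed signal of the 4 head muscle markers was highest there as well (6077 and 5969, against 4792 to 5682 on the other arrays). The part of that in the result was not tested. Strn-Mlck, a myosin light chain kinase gene, passed the test in the direction of mid-dark (-0.32, limma adjusted p 0.0241) just short of the fold threshold. Vinc, which encodes vinculin and is not on that list, was at 2468 to 3686 in mid-light and 1431 to 2224 in mid-dark (0.74, limma adjusted p 0.0417).

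**Figure D4:**
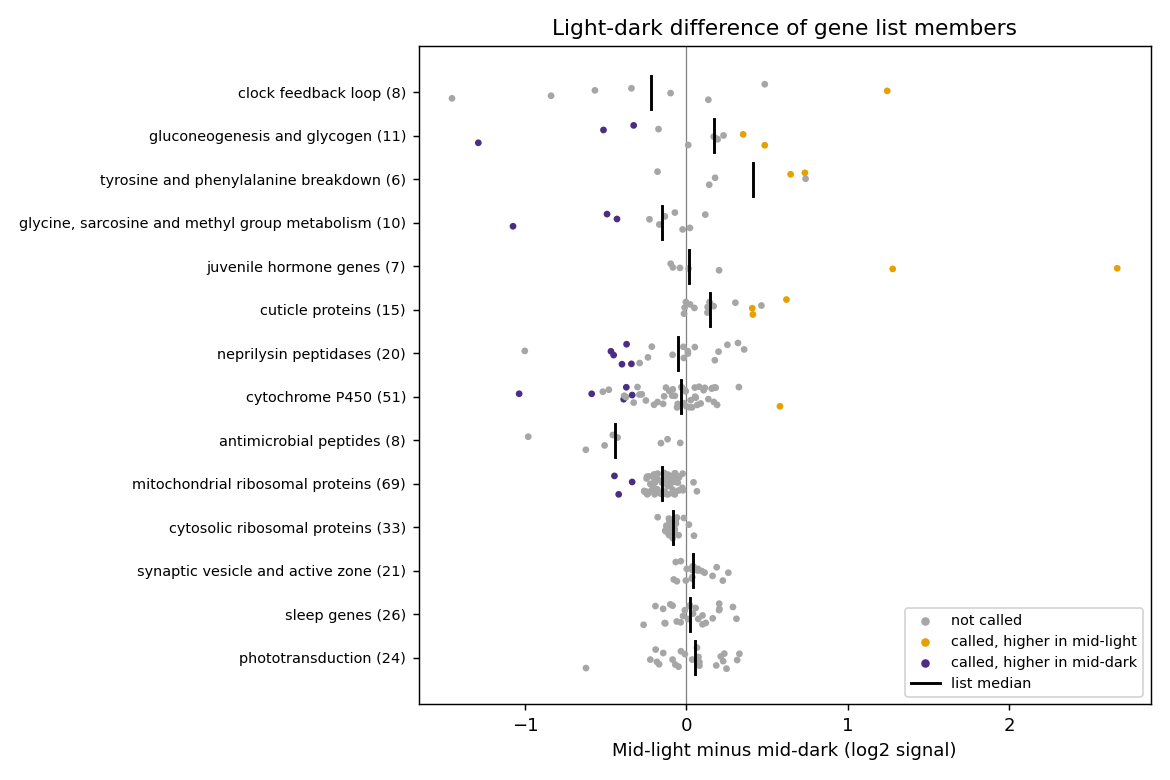
Mid-light minus mid-dark difference in log2 signal (horizontal axis) of the members of 14 gene lists (vertical axis, number of genes tested in parentheses), 1 point per gene from its brightest probe set, colored by call, with black bars for list medians. Mitochondrial ribosomal proteins lie to the left of 0 with a median of -0.15, and synaptic, sleep and phototransduction genes lie around 0 without a call.

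At lights-off most called probe sets of either direction were nearer to the mid-light level. At lights-on those higher in mid-light split more evenly than those higher in mid-dark. These positions were described without a test. The control mean of lights-on includes the array of ZT 0, which carries transcripts of other organs. For the 159 probe sets higher in mid-dark, the signal at lights-off (ZT 12) was nearer to the mid-light level in 120 of them in control and in 97 in fmn, and the mean of ZT 0 and ZT 24 was nearer to the mid-dark level in 95 in each genotype. In 51 of them both held in both genotypes, so that the level was still low at lights-off and still high at lights-on. Among these were Pepck2, M7BP, CG8419, Rab32 and lz, a Runx transcription factor gene. Pepck2, for example, was at 521.9 in control and 759.6 in fmn at ZT 12 and at 1069, 1763, 1136 and 1779 at the 4 lights-on arrays. The 157 probe sets higher in mid-light split more evenly at lights-on, with 84 in control and 80 in fmn nearer to the mid-light level. At lights-off 103 in control and 88 in fmn were nearer to it. In 22 of them lights-on was near the light level and lights-off near the dark level in both genotypes, as for gb, bgm, Jhe and Gasp, and in 32 the reverse held, as for Buffy and kra.

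Transcripts of other organs were high on both fmn mid-light arrays. On the fmn array of ZT 4 the summed signal was 3015 for 17 testis genes, 4944 for 12 male accessory gland genes and 4652 for 23 gut genes, and on the fmn array of ZT 8 it was 6388 for 15 ovary genes and 15180 for the gut genes. The 4 mid-dark arrays and the 2 control mid-light arrays gave sums of 264.9 to 479.9 for testis, 168.7 to 273.8 for male accessory gland, 159.0 to 246.8 for ovary and 387.7 to 470.9 for gut. At the level of single genes, the ovary gene Vm34Ca had a signal of 3289 on the fmn array of ZT 8 and of 2.33 to 24.15 on the other 13, and the gut protease gene Jon65Aiv was at 858.2 and 3465 on the fmn arrays of ZT 4 and ZT 8. Of these 67 genes, 1 passed the filter on dim signals, the maltase gene Mal-A1, which had 148.0 and 165.2 in control and 582.8 and 217.3 in fmn in mid-light and 186.8, 177.1, 169.9 and 165.7 in mid-dark. Its difference was 1.07 in fmn and -0.20 in control, and it was not called (limma adjusted p 0.495). Without both fmn mid-light arrays, 42 probe sets were called, 38 of them among the 316, with 6 arrays in the fit in place of 8. In that fit the difference came from the control arrays alone, 2 against 2, and the fmn mid-dark arrays bore only on the spread. Without both control mid-light arrays, 3 were called, all 3 among the 316. There the difference came from the fmn arrays alone, and no direction could be asked of control.

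**Figure D5:**
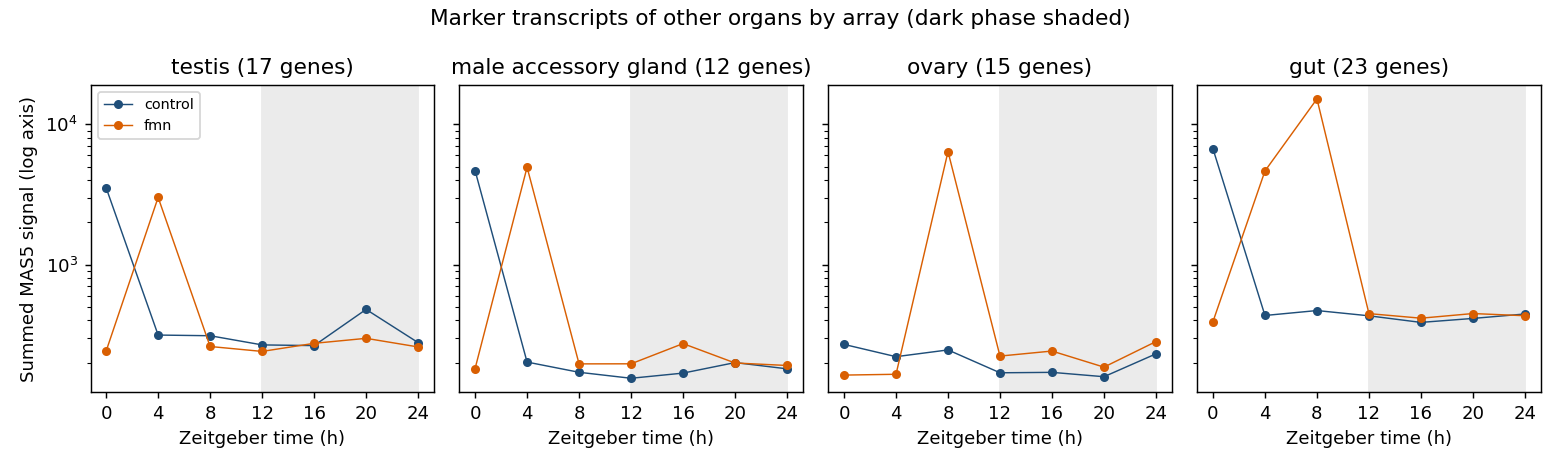
Summed MAS5 signal on a log axis (vertical) of marker genes of testis, male accessory gland, ovary and gut at each zeitgeber time in hours (horizontal axis), 1 array per point, in control and fmn, with the dark phase shaded. Testis, accessory gland and gut stand out on the fmn array of ZT 4 and the control array of ZT 0, and ovary and gut on the fmn array of ZT 8, with gut at 15180 there.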

How the data were processed

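Head RNA of 14 pools was measured by the authors on Affymetrix Drosophila Genome 2.0 arrays. The deposited files give, for each probe set, a MAS5 intensity on a linear scale. Its version and scaling target are not given in the sources used here, and MAS5 Present calls were not used. Control probe sets were dropped. Of the remaining 18769 probe sets the platform annotation gives 13646 a single gene, 402 several and 4721 none, and symbols were updated through a RefSeq table of Release 6. Intensities were taken to log2 with no pseudocount, and the 75th percentile of an array was subtracted from all its values. The signal part of the study's filter removed probe sets that fell below 100 on 7 or more of the 14 arrays, which left 8641. The phases were compared in limma 3.58.1 (R 4.3.3), by lmFit and eBayes with genotype as a covariate and Benjamini-Hochberg adjustment over the 8641, at the study's thresholds for adjusted p and fold. Named are the clock loop genes, the 12 largest called rises and 12 largest falls, up to 4 called members per list, the interaction gene and, where stated, genes chosen after their values were seen, which were not refitted under the alternatives. A list counts a gene by its brightest probe set, and its median has no test. The fits were tested on simulated data. A floor of 100 for dim signals of a few named genes was chosen after seeing the data. The members and lists were chosen with earlier results of these data known. Alternatives changed scaling, filter, pseudocount, limma options, thresholds, covariates and arrays. The number of arrays limits the precision.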

Additional observations from a re-analysis of the deposited data

Results flagged for a closer look

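In the mid-dark group, the fmn array of ZT 20 lay apart from the other 3 for CG1698 (97.57 against 92.1 to 92.61), a gap of 0.834 of the whole range of the group, and the fmn array of ZT 16 lay apart for CG18598 (1148 against 1443 to 1479), a gap of 0.918. In both genes all mid-dark arrays stayed below all mid-light arrays. About 1 in 20 groups of 4 arrays is set apart this way by chance. CG16826 stood apart because its light-dark difference differed between the genotypes by -8.06 on the log2 scale (limma interaction, adjusted p 0.00319), with both control arrays of mid-dark under 2. That size is not exact, since these signals are dim. It was -1.91 with signals under 100 set to 100, and with a pseudocount of 32 no probe set passed (smallest adjusted p 0.294).

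Signals of genes of other organs, outside the transcripts compared, rose above those of the other arrays on 3 arrays. On the fmn array of ZT 4 the sums were 3015 for testis, 4944 for male accessory gland and 4652 for gut genes. On the fmn array of ZT 8 they were 6388 for ovary and 15180 for gut genes. On the control array of ZT 0, which the comparison does not use, they were 3529 for testis, 4679 for male accessory gland and 6690 for gut genes.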

How the results depend on the processing

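Of the named genes' values under all alternatives, 970 kept their direction and their side of the threshold, 285 lost and 11 gained the call, and 6 changed sign. The 316 calls were 303 to 360 under other scalings, an 8-array filter, a pseudocount of 32, limma with a trend or array weights and the fit over all 14 arrays, 280 with the time point as a random block and 269 with the position in the phase as a covariate. Fewer were made with no filter (1 of 18769 probe sets), at 1.5-fold (108), at an adjusted p under 0.01 (112), for ZT 4 against ZT 16 only (72), with no fmn mid-light arrays (42) and with no control mid-light arrays (3), of which the last 3 hold fewer arrays by construction. ZT 8 against ZT 20 only, with 4 arrays like the fit of ZT 4 against ZT 16, gave 279. The cause was not tested. In the fits with no mid-light arrays of 1 genotype, the difference came from the other genotype alone. Leaving out 1 array gave 193 (without control ZT 4) to 350 (without fmn ZT 16). The interaction passed for 0 probe sets with no filter and 0 with the pseudocount (smallest adjusted p 0.196 and 0.294), and for 1 to 3 when 1 array was left out, 2 without fmn ZT 4 and 3 without fmn ZT 8. With ZT 8 against ZT 20 only, per (1.05), Clk (-0.62), vri (1.15) and Pdp1 (0.27) changed sign. For cwo the sign turned with ZT 4 against ZT 16 only (-0.36) and without fmn ZT 20 (-0.0348). Beyond the fit with the position in the phase, the light-dark comparison was not paired, because the labels number no replicates and each time falls in 1 phase. Control and fmn share their times, but the interaction was not paired by time. Change within a phase common to both genotypes therefore adds to its error, as for per (interaction -0.07, SE 1.37). There the log2 change from ZT 4 to ZT 8 was 1.83 in control and 2.05 in fmn. The promoter motif description was not run.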

Other observations

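Several called transcription factor and signaling genes belong to no list above and were named after their values were seen. The nuclear receptor gene svp was higher in mid-light on its brighter probe set (log2 difference 0.43, limma adjusted p 0.0436), and its other probe set was not called (0.18, 0.111). Hnf4, the nuclear receptor gene of fat and sugar metabolism, was higher in mid-dark, with signals of 1036 to 1184 in mid-light and 1293 to 1523 in mid-dark (-0.35, adjusted p 0.0354). The Runx gene lz was at 112.0 and 105.2 in control and 129.6 and 157.6 in fmn in mid-light and at 193.7, 204.7, 227.0 and 198.1 in mid-dark (-0.72, adjusted p 0.00395). AkhR, the receptor gene of adipokinetic hormone, was called higher in mid-light on its dimmer probe set (0.40, adjusted p 0.0337) and not on its brighter one (0.20, 0.159).

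Fat body markers had lower sums by day than by night in fmn. The summed signal of 6 fat body markers was 68710 to 73660 in fmn mid-light and 81680 to 89260 in fmn mid-dark, and 86850 to 102500 and 88150 to 104600 in control, where the phases overlapped. None of the 5 that were tested was called by limma, with 1 at an unadjusted p under 0.05. Lsp2, a larval serum protein gene, ranged from 386.5 to 1176 over the control arrays compared and from 1289 to 3021 over the fmn arrays (-0.71, adjusted p 0.216).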
